A study of Rattus norvegicus with 6 samples.

Results

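Circular RNAs (circRNAs) that were lower in every monocrotaline lung than in every saline lung, and were still measured after monocrotaline, are described here. They are 50 of the 14145 circRNAs on a 1-colour array that was hybridised with lung RNA of male rats. They were selected on measured values. Each lay well above background, by the mark of the scanner software, on all 3 saline arrays and on at least 1 of the 3 arrays of monocrotaline lungs, and its lowest saline value in the authors' processed log2 table exceeded its highest monocrotaline value by at least 0.5. The contrast that chose them is the contrast of the study, so their differences between the groups are a description and are given without a test.

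The study compared rats treated with monocrotaline (MCT), injected once into the peritoneum at 60 mg per kg, with rats that received saline in its place. All rats are labelled as 6 weeks old, and the lungs were taken after 28 days and perfused with PBS. Each group holds 3 samples with 1 array each, called saline 1 to 3 and MCT 1 to 3 after the numbers in the labels. The labels do not say whether the samples of a group came from separate animals, so spreads and tests below measure the spread between these samples, which may be technical. MCT, a plant alkaloid, is activated in the liver and injures the lung endothelium, which makes the treated rat a widely used model of pulmonary arterial hypertension. The model is a chemical injury, and no measure of disease in these rats was used here.

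A circRNA forms when the spliceosome joins a downstream splice donor to an upstream acceptor of the same transcript. The closed ring has no free end for exonucleases and is therefore stable, and many circRNAs accumulate in tissues whose cells divide little. RNase R, which digests linear RNA from its free end, was used on these samples to enrich circles before labelling. In whole lung, fewer cells of a type and less RNA per cell cannot be told apart. The sources used here pair no circRNA of this array with a host gene or a sequence, so the circRNAs are named by their array ID. Among the linear probes that a RefSeq table could name, 0 of 17 listed markers of lung epithelium, endothelium, smooth muscle and blood cells were present, so the labelled tissue was not checked against markers.

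The selection took a small share of what could have passed. Of the 14145 circRNAs, 10577 met the detection part of the criteria, and 54 of these (0.511%) also had the gap of 0.5. Of the 54, 4 were left out by name, ASCRPR007618, ASCRPR002682, ASCRPR002495 and ASCRPR011989, which leaves 50. With the groups exchanged, 67 of 7341 circRNAs (0.913%) were higher in MCT lungs by the same gap. Which direction had the larger count depended on the processing. With the same gap, 44 were lower and 93 higher on signal scaled by the array's 75th percentile, but 287 were lower and 36 higher on unscaled signal (lower counts without the 4). Near the threshold, ASCRPR000232 and ASCRPR013366 were the last to enter, with gaps of 0.506 and 0.508, and ASCRPR011376 and ASCRPR006744 the first to miss it, with gaps of 0.497 and 0.493. All 4 had the same array order in common: saline 3 was the lowest saline array and MCT 1 the lowest MCT array.

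The arrays differed in brightness, and 2 of the 3 MCT arrays were dimmer than every saline array. In saline lungs the upper quartile of processed signal ranged from 75.6 to 94.5 fluorescence units. MCT 2 reached 95.2 units, whereas MCT 1 reached 41.4 and MCT 3 reached 32.3 units. Well above background were 80.3% to 84.5% of circRNAs in saline lungs and 78.7% on MCT 2, but 63.1% on MCT 1 and 55.1% on MCT 3. Saline 1 to 3 and MCT 1 carry the same scan identifier in their scanner headers, and MCT 2 and MCT 3 carry another. Arrays that share an identifier are taken here to be on the same slide, although the labels name no slide. The part of array brightness in the differences below was not tested, and the separation of the groups is given under several scalings.

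Although the criteria asked for detection on only 1 MCT array, all 50 circRNAs were well above background on all 6 arrays, as were 69.3% of the 10577 that met the detection part. Of the 4 left out by name, 3 were. None of the spots of the 50 circRNAs was saturated or marked as an outlier. They were mostly bright circles: 39 of the 50 had a saline mean of at least 10 in the authors' values, a level reached by 439 of the 10577. Among these 439 bright circRNAs 39 met the selection (8.88%), against 15 of the 10138 dimmer ones (0.148%, the 4 left out included). Among the 100 highest saline means lay 17 of the 50, and among the 500 highest 40. The median saline mean was 11.51 for the 50 and 6.52 for all 10577. Of the 67 chosen with the groups exchanged, 28 had an MCT mean of at least 10, and their median MCT mean was 9.68. How many of the selected were bright also depended on the scaling. With the same gap it ran from 1 of 44 on the 75th percentile scale to 44 of 46 with normexp background correction and quantile normalization.

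**Figure D1:**
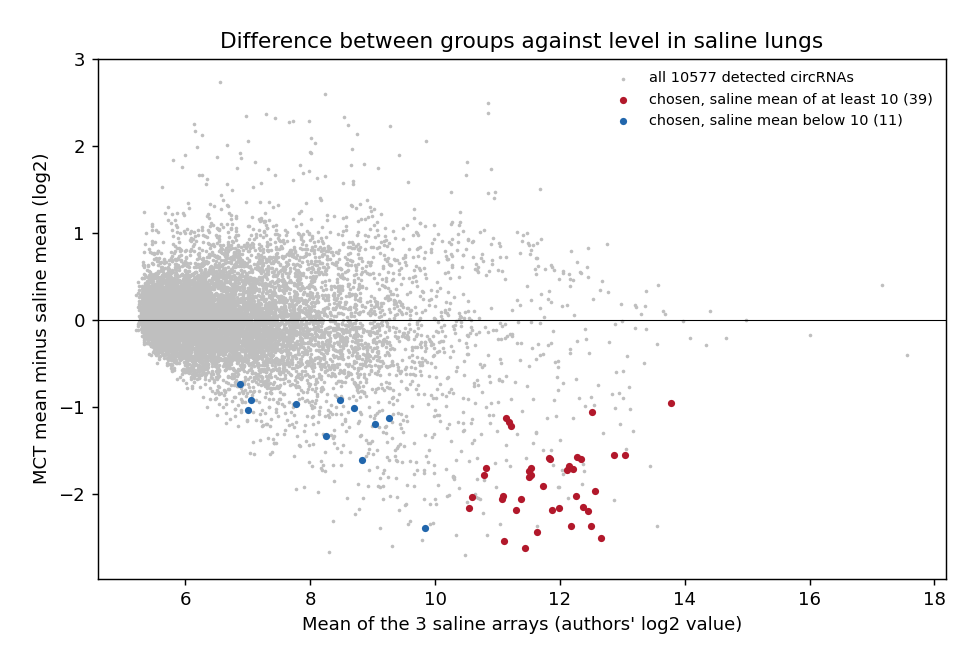
Mean difference between MCT and saline arrays against the saline mean, both as the authors' log2 values, for the 10577 circRNAs that met the detection part of the criteria (grey), the 39 chosen circRNAs with a saline mean of at least 10 (red) and the 11 below 10 (blue). The chosen circRNAs lie between -2.62 and -0.73, and most of them at the bright end.

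In the authors' values the 50 circRNAs differed between MCT and saline by a median of -1.72, from -2.62 to -0.73, against a median of -0.02 over all 10577. As the criteria required, the groups did not overlap for any of the 50, where 7.65% of the 10577 circRNAs had all MCT values below all saline values. What the criteria did not fix was the order of arrays within each group, and it was nearly uniform. MCT 1 was the lowest MCT array for 46 of the 50, compared with 27.2% of all 10577. Saline 3 was the lowest saline array for 45, compared with 33.8%, and tied with saline 2 for the lowest place for 1 more. Both held for 43 of the 50, for 13.5% of all 10577 and for 29.0% of the 400 bright circRNAs that were not chosen. These circRNAs share their arrays, and so their orders are not independent of one another.

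**Figure D2:**
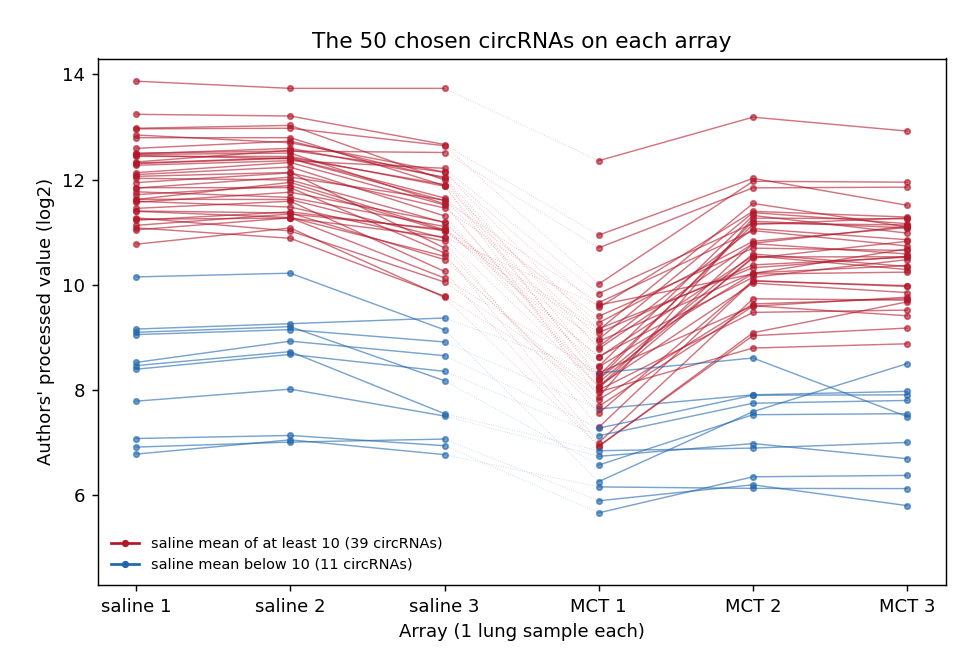
Authors' processed log2 values of the 50 chosen circRNAs on each array, with 1 line per circRNA, red where the saline mean was at least 10 (39) and blue where it was below 10 (11). The lines join the values of 1 circRNA and imply no order of the samples. Nearly all lines dip at saline 3 and are lowest at MCT 1.

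The dip at MCT 1 was large. MCT 1 lay below the mean of MCT 2 and MCT 3 by a median difference of -1.73 on the authors' log2 scale, with a range from -3.39 to 0.27. Over all 10577 circRNAs the same difference had a median of 0.02. Saline 3 differed from the mean of saline 1 and saline 2 by a median of -0.63 for the 50 and 0.05 for all. The spread between MCT arrays was wider than that between saline arrays, with a median SD (n = 3) of 1.002 against 0.373. For the 400 bright circRNAs that were not chosen the medians were 0.688 and 0.403.

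Over all 10577 circRNAs the widest gap was 1.84, in 1 of the 4 that were left out by name. Among the 50 the widest was that of ASCRPR006698, whose lowest saline value exceeded its highest MCT value by 1.04. Its authors' values were 12.27, 12.36 and 12.21 on saline 1 to 3 and 9.84, 11.17 and 11.14 on MCT 1 to 3. The saline arrays agreed closely, with a mean of 12.28 ± 0.07 (SD, n = 3), and the MCT arrays ranged more widely around 10.71 ± 0.76 (SD, n = 3). The scanner recorded 5698, 4627 and 2977 units in saline lungs and 263, 1592 and 1031 units in MCT lungs. MCT 1 was thus the faintest by a wide margin, and MCT 2 and MCT 3 lay below the faintest saline array, saline 3.

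ASCRPR004289, ASCRPR008422 and ASCRPR002366 had gaps of 0.929, 0.905 and 0.870 and reached further down in MCT 1. ASCRPR004289 had authors' values of 12.49, 12.59 and 12.05 on the saline arrays and 8.79, 10.79 and 11.12 on the MCT arrays. ASCRPR008422 had 11.08, 10.89 and 9.79 in saline and 7.97, 8.80 and 8.88 in MCT lungs. Its MCT values lay within 1 log2 unit of each other, and saline 3 was the array that came closest to them. ASCRPR002366 had 11.85, 11.85 and 10.61 in saline and 7.002, 9.74 and 9.71 in MCT lungs, the largest mean difference of the 50 at -2.62, or 6.14-fold. Its processed signal ran from 4346, 3217 and 1016 units in saline to 44.9, 632 and 314 units in MCT lungs. MCT 1 was the faintest array, and in the authors' values MCT 2 and MCT 3 were less than 1 log2 unit below saline 3.

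The brightest of the 50 was ASCRPR010606, the tenth highest of the 10577 saline means. Its authors' values of 13.87, 13.73 and 13.73 in saline lungs and 12.36, 13.19 and 12.92 in MCT lungs gave a gap of 0.547. The scanner recorded 14377, 11752 and 8736 units for it in saline lungs and 1754, 8427 and 5586 units in MCT lungs. MCT 2 came within a few percent of saline 3, and MCT 1 stood far below all others.

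In the 4 next in scaled saline level MCT 1 was again the lowest array. ASCRPR011115 had authors' values of 13.24, 13.21 and 12.67 in saline and 10.95, 12.02 and 11.51 in MCT lungs. ASCRPR009693 had 12.96, 12.98 and 12.64 in saline and 10.02, 11.97 and 11.95 in MCT lungs. In ASCRPR000110 the saline arrays hardly differed, at 12.50, 12.54 and 12.51, and the MCT arrays stood at 10.70, 11.84 and 11.86. ASCRPR008696 had 12.98, 13.03 and 11.99 in saline and 8.21, 11.21 and 11.08 in MCT lungs, the steepest fall to MCT 1 among these 5 bright circRNAs. Its processed signal on MCT 1 was 80.6 units, against 2381 to 8625 units in saline lungs.

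The 11 circRNAs with a saline mean below 10 did not all follow the common order. MCT 1 was lowest for 7 of them and MCT 3 for 4, and saline 3 was the lowest saline array for 8. Their median difference between MCT and saline was -1.03 in the authors' values, compared with -1.80 for the 39 bright ones, and the median SD of their MCT arrays was 0.363 (n = 3). ASCRPR004261 had the widest gap of these 11 at 0.938. Its authors' values were 9.06, 9.15 and 8.92 in saline and 7.64, 7.91 and 7.98 in MCT lungs, so that all 3 MCT lungs were low by about the same amount. Another 3 are named here after their values were seen. ASCRPR006708 had the most uniform MCT values of the 50, at 6.16, 6.13 and 6.13 against 6.79, 7.06 and 6.78 in saline lungs, and the smallest difference of the 50, -0.73. ASCRPR010794 had 6.92, 7.01 and 7.07 in saline and 5.90, 6.20 and 5.81 in MCT lungs. It had the faintest single value of the set, 9.68 units on MCT 3, which the software still marked as well above background. ASCRPR009383 had 9.16, 9.26 and 9.37 in saline and 8.33, 8.61 and 7.498 in MCT lungs, an order in which MCT 3 and not MCT 1 was low.

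As a group the 50 made up a visible part of all circRNA signal in saline lungs. Their summed processed signal was 6.62%, 6.68% and 3.48% of that of all 14145 circRNAs on saline 1 to 3 and 0.579%, 2.19% and 1.93% on MCT 1 to 3. The mean share of saline lungs was 5.59% ± 1.83 (SD, n = 3). That of MCT lungs was 1.57% ± 0.864 (SD, n = 3), and the groups did not overlap. This follows from the choice of circRNAs, as each of the 50 was by itself apart as a share of the summed signal. A factor common to all signals of an array cancels in such a share, but a difference in how the signals are spread does not. The bright members dominate the share: the 39 alone made up 6.49%, 6.54% and 3.37% in saline lungs and 0.552%, 2.13% and 1.90% in MCT lungs.

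**Figure D3:**
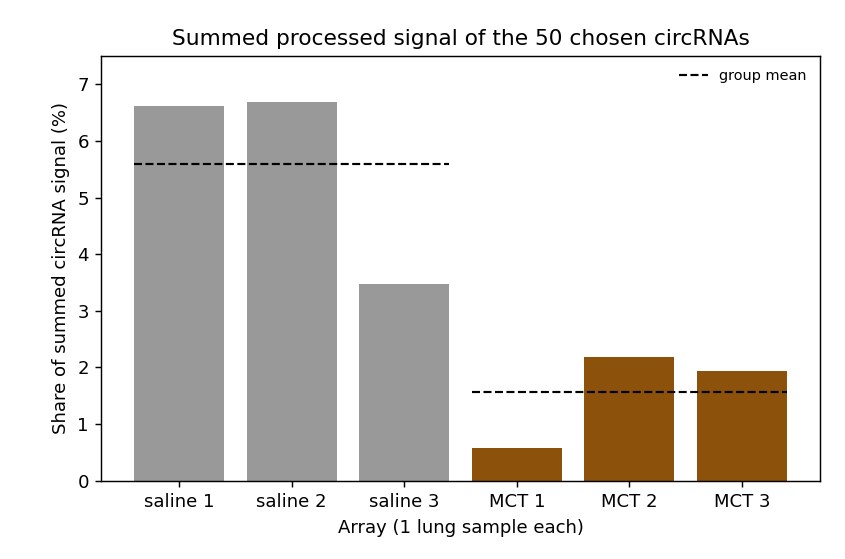
Summed processed signal of the 50 chosen circRNAs as a percentage of that of all 14145 circRNAs, 1 bar per array, with saline arrays grey, MCT arrays brown and dashed lines at the group means of 5.59% and 1.57%. Every MCT array lies below every saline array, and saline 3 and MCT 1 are the lowest of their groups.

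Whether the groups stayed apart depended on how the arrays were scaled. When each array's 75th percentile was subtracted from its log2 processed signal, only 25 of the 50 circRNAs had all MCT values below all saline values, where 6.72% of the 10577 had. These 25 comprised all 11 dimmer circRNAs and 14 of the 39 bright ones. For each of the 25 that overlapped, saline 3 was the lowest saline array and MCT 3 the highest MCT array, and without MCT 3 all 50 were apart, against 13.6% of the 10577. Without saline 3, 49 were apart, against 15.5%. On this scale the median difference between saline 3 and MCT 3 was -0.15 for the 39 bright circRNAs, with MCT 3 the higher, while saline 3 exceeded MCT 2 for each of them, as it did for 227 of all 439 bright circRNAs and 5192 of the 10577. The upper ends of the arrays reached differently far above their 75th percentiles. The 99th percentile of all circRNAs lay 5.57 log2 units above it on MCT 3, the most of all arrays, and 4.52 on saline 3, the least. It lay 5.24 and 5.27 above it on saline 1 and saline 2, and 4.64 and 4.55 on MCT 1 and MCT 2. The part of this in the overlap was not tested.

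With the 75th percentile taken over the probes seen on all arrays, 31 of the 50 were apart, 20 of them bright, where 6.68% of the 10577 were. The 50 stayed apart in the other ways of processing that were tried, which is no independent support. The authors' values that chose them have nearly the same quartiles on every array, as quantile normalized values do. On unscaled signal the median difference between MCT and saline over all 10577 was already -0.85. Unscaled, 50 of 50 had all MCT signals below all saline signals, where 13.0% of the 10577 had. As shares of the array's summed circRNA signal, a scaling added after the data were seen, 50 of 50 did, where 10.6% had. With quantile normalization 50 of 50 did, where 8.06% had, and with normexp background correction before it 50 of 50, where 7.75% had. A selection with the same gap on the 75th percentile scale found 44 circRNAs, a similar number, but only 9 of them were among the 50, which is 18% of the 50 and 20.5% of the 44, and only 1 of the 44 was bright. The same gap on normexp and quantile values found 46, of which 40 were among the 50. On unscaled signal it found 287 with 40 of the 50, and on shares of the summed signal 276 with 47 of the 50.

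**Figure D4:**
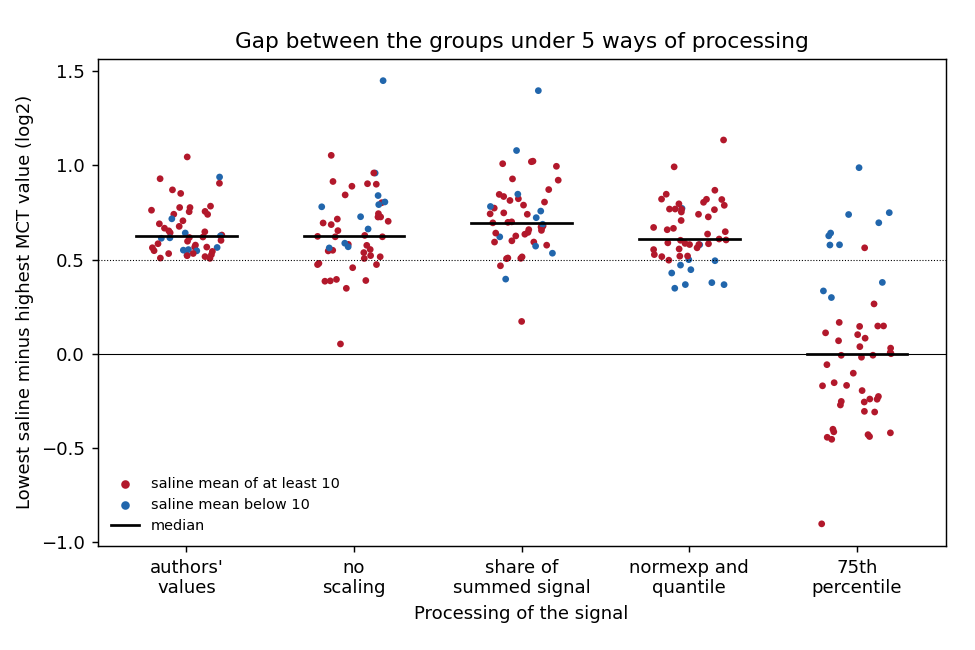
Lowest saline value minus highest MCT value of each of the 50 chosen circRNAs on the log2 scale under 5 ways of processing the signal, red for a saline mean of at least 10 and blue for below 10. The black bars are medians, the dotted line is the gap of 0.5 and points below 0 are circRNAs whose groups overlap, which occurs with 75th percentile scaling and only for red points.

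ASCRPR006698 shows what the scaling changes. With 75th percentile scaling it stood at 5.92, 5.94 and 4.98 on saline 1 to 3 and at 2.67, 4.06 and 4.996 on MCT 1 to 3. MCT 3 thus drew level with saline 3, although the means still differed by -1.70. ASCRPR010606 stood at 7.26, 7.28 and 6.53 in saline and 5.41, 6.47 and 7.43 in MCT lungs, so that MCT 3 was the highest of all 6 arrays. Among the 10 circRNAs with the widest gap or the highest level, ASCRPR004261, ASCRPR008422, ASCRPR002366 and ASCRPR011115 remained apart on this scale, the last by only 0.0065. ASCRPR004261 stood at 2.35, 2.41 and 1.92 in saline and 0.46, 0.95 and 1.19 in MCT lungs.

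On the 75th percentile scale all 50 circRNAs had a lower mean in MCT than in saline lungs, as did 53.2% of the 10577. The 50 were chosen for this direction. The differences ran from -2.79 to -0.59 with a median of -1.86, compared with -0.05 over the 10577, and the folds from 1.502 to 6.92. The largest fold belonged to ASCRPR007585, named after its values were seen, with 4.96, 5.22 and 3.11 in saline and -0.43, 2.14 and 3.21 in MCT lungs. The smallest belonged to ASCRPR010606. The difference was not shared evenly by the MCT arrays. Against the mean of the saline arrays, MCT 1 had a median of -3.14 over the 50, MCT 2 one of -1.57 and MCT 3 one of -0.86. All 50 were below the saline mean on MCT 1 and MCT 2 and 49 on MCT 3, the exception being ASCRPR010606. Of all 10577, 49.8%, 42.8% and 57.2% lay below the saline mean on MCT 1, MCT 2 and MCT 3. For the 400 bright circRNAs that were not chosen the medians were -0.22, -0.18 and 0.05.

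**Figure D5:**
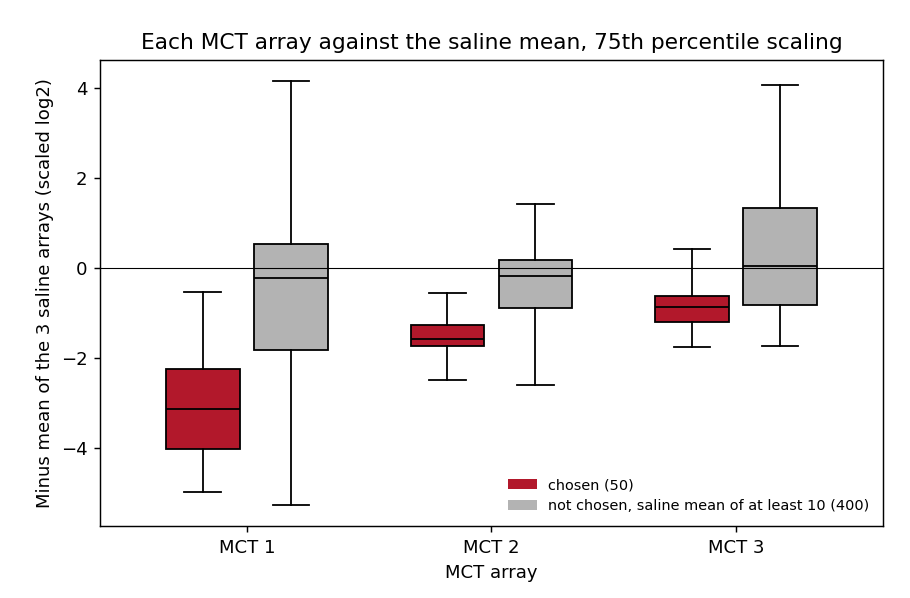
Level on each MCT array minus the mean of the 3 saline arrays, on the 75th percentile log2 scale, for the 50 chosen circRNAs (red) and the 400 circRNAs with a saline mean of at least 10 that were not chosen (grey); boxes span the quartiles with the median as a line, and whiskers the full range. The chosen circRNAs are lowest on MCT 1, with a median of -3.14, and nearest to saline on MCT 3, with a median of -0.86.

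MCT 1 is the only MCT array on the slide that holds the saline arrays, so a comparison within that slide, or with slide as a block, gives the differences of MCT 1 alone, with a median of -3.14. MCT 2 and MCT 3 cannot be set against saline within their slide, and for them slide and treatment cannot be told apart. Without MCT 1 the median difference over the 50 was -1.27, and all 50 remained below 0, the direction for which they were chosen.

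In the fit over all 11280 tested circRNAs (limma, 75th percentile scale), 0 of the 50 passed an adjusted p of 0.05, where 2 of 11280 (0.0177%) did in the lower direction. At an unadjusted p below 0.05, 49 of the 50 passed and 6.64% of all were lower. The same contrast chose the 50, so nothing is read from either count.

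Consecutive array IDs are carried by 2 pairs of the 50, named after their values were seen. ASCRPR000231 and ASCRPR000232 had nearly equal signals, with 2363 and 2612 units on saline 1, 1346 and 1336 on saline 3, 204 and 174 on MCT 1 and 626 and 615 on MCT 3. ASCRPR004288 and ASCRPR004289 had 6732 and 6428 units on saline 1, 134 and 122 on MCT 1 and 1761 and 1234 on MCT 2. Each pair differed by less than 1.5-fold on every array. Whether the probes of a pair read overlapping circles was not tested. By contrast ASCRPR002681 and its neighbour ASCRPR002682, one of the circRNAs left out, differed in profile: the ratio of the second to the first was 0.440 on saline 1, 1.15 on saline 3 and 0.120 on MCT 2.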

How the data were processed

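Each of 6 arrays has a scanner file of deposited intensity per spot, written by Agilent Feature Extraction 11.0.1.1 according to its header, with a background-subtracted processed signal, median spot and surround brightness, and yes-or-no marks. The authors' table holds log2 values, and the submitters' processing notes name limma without a step. Over the 10577 circRNAs that met the detection criteria its array medians are 6.49 to 6.53. Its highest value is 17.56 on each of the 6 arrays, and its quartiles nearly coincide between arrays. Quantile normalization between arrays produces this pattern. The authors' steps are not stated, and the background treatment is unknown. Control spots were left out. Marked outlier spots were left out of the log2 processed signal and the normexp values, but not of the summed signals, the shares or the detection marks. The selection used the authors' values, as did the array orders, the bright and dim division and the named values unless another scale is stated; shares used unscaled signal. The fit, and its alternatives, used log2 processed signal minus the array's 75th percentile as the main scale. limma 3.58.1 in R 4.3.3 (lmFit, eBayes, no covariate) was fitted to 11280 circRNAs (those marked well above background by 3 arrays or more), with Benjamini-Hochberg adjustment, and was tested on simulated data. The number of arrays limits the precision.

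Members, named circRNAs and tests were chosen with earlier results of these data known. Named were the 5 with the widest gap, the 5 with the highest scaled saline mean, and the 2 on either side of the threshold, beside those said to be named later. The level of 10 that divides bright from dim was set after the values were seen. Alternatives were other scalings, normexp (offset 50, on median signals), filters, slide, a replicate block and leaving out single arrays.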

Additional observations from a re-analysis of the deposited data

How the results depend on the processing

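The selection of 50 circRNAs became 805 with no gap, 1 with a gap of 1, 287 on unscaled signal and 276 on shares of the summed signal, and leaving out single arrays gave 56 to 495, the highest without saline 3 (223 without MCT 2, 172 without MCT 3). Leaving out an array cannot narrow a gap in either direction. The 50, detected on all 6 arrays, therefore had to remain in each of these selections. The selection with the groups exchanged, 67, became 769 with no gap, 14 with a gap of 1, 36 unscaled and 42 with normexp, and ran from 77 to 709 with 1 array left out, the highest without MCT 2 (128 without saline 1, 104 without saline 3). More circRNAs were lower than higher with no gap, on unscaled signal, with normexp, on shares of the summed signal (84 higher), without saline 3 (104 higher) and without MCT 3 (90 higher), the reverse of 50 lower against 67 higher. These are counts on unequal bases. The lower counts are without the 4 circRNAs left out by name, with which the main selection held 54. Nothing was left out by name from the higher counts. In the main selection 10577 circRNAs met the detection part for the lower direction and 7341 for the higher. A larger count is therefore not always a larger share. The 25 of 50 circRNAs whose groups did not overlap became 50 with quantile normalization, without scaling, with normexp and quantile normalization, in the authors' values, as shares of the summed signal and in slide 1 alone, and 31 with the 75th percentile over probes seen on all arrays. With 1 array left out this number could not fall, and it ran from 25 to 50, with 49 without saline 3 and 50 without MCT 3. This count could not be fitted with slide as a block. The median difference of -1.86 became -3.14 with a slide block and within slide 1, and ran from -2.40 to -1.27 with 1 array left out. Of the 12 named circRNAs, 25 of 180 values moved by more than the spread between replicates, 22 of them in the slide settings, and 0 reversed.

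Calls by limma, 0 higher and 2 lower, became 12 and 119 with a slide block, and 71 and 113 within slide 1, whose lone MCT array is taken to vary like the saline ones. Lower calls became 1 without scaling and 0 with normexp and quantile normalization, in the authors' values, as shares of the summed signal and among circRNAs detected on all 6 arrays. With 1 array left out, 0 to 94 were higher and 1 to 12 lower, with the most without MCT 2. Without MCT 3, 4 were higher, and without saline 3, 1 was lower. With the replicate block 18 were higher and 12 lower. The labels do not say whether the replicate numbers pair the samples. Deviations of same-numbered arrays had correlations of -0.229, -0.361 and -0.449, and 0 of 6 arrays had its own number as its closest match. With so few arrays these values cannot decide whether the samples were paired. The median difference over the 50 stayed at -1.86 with the block. The cause of these changes was not tested.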

Other observations

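The 50 spots were spread over the array, in rows 8 to 183 of 192 and columns 1 to 78 of 82, with a median row of 83 and a median column of 40.5, against 97 and 41 for all circRNA spots. With the software's less strict mark, a signal that is positive and significant, the selection held 51 circRNAs, the 50 among them. When the selection was repeated without saline 3, 495 circRNAs met it, 121 of them bright, and the 50 made up 10.1% of these. Without MCT 1 it held 56, of which the 50 made up 89.3%.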
